A study of Mus musculus with 2 samples.

Results

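Blood endothelial cells are the cells that line the arteries, capillaries and veins of the wound. They were picked here as barcodes with at least 2 unique molecular identifiers (UMIs) of at least 4 of the 6 genes Pecam1, Cdh5, Egfl7, Emcn, Kdr and Tie1. Members also had fewer than 2 UMIs of Prox1, a lymphatic endothelial regulator, under 0.1% of UMIs from Tyrobp, Fcer1g and Lyz2, and under 3% from Col1a1, Col1a2 and Col3a1. This choice gave 97 members among 8871 kept barcodes, 45 from aged mice and 52 from young mice. The levels of these 13 genes chose the members and are given below as a description only.

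The data are droplet-based 3' single-cell RNA counts of all cells freed from full-thickness back skin wounds at day 6. The study asks how senescence in healing skin changes with age. There was 1 library of aged mice of 24 months and 1 library of young mice of 2 months, all wild-type C57BL/6 males, an inbred strain, with 10 mm wounds and no other treatment. Several mice were pooled in each library, and their number is not given in the sources used here. With 1 library per age, an effect of age cannot be told apart from one of the animals pooled or of how each library was made. No test between ages was therefore made, and every bracketed range is a 95% interval that covers counting error only.

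Endothelial cells of different vessels carry different genes. Venules bear the selectins and chemokine receptors that stop passing leukocytes, capillaries bear fatty acid and water transporters, and arteries are marked by Notch signalling and gap junction proteins. In a healing wound, new capillaries grow from sprouts led by tip cells, which answer to VEGF and carry Esm1, Apln and Angpt2. Mural cells, the pericytes and smooth muscle cells, wrap the outside of the same vessels.

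The aged library held 4379 barcodes with 107865898 UMIs, and the young library 4932 barcodes with 111810068. Of these, 4210 aged and 4661 young barcodes passed the limits of 500 UMIs, 200 genes and under 15% mitochondrial UMIs. The members made up 1.07% (0.781 to 1.43) of kept aged barcodes and 1.12% (0.834 to 1.46) of kept young barcodes, which gives a ratio of shares of 0.958 (0.628 to 1.46). They were deep, with a median of 39051 UMIs in aged and 35229 UMIs in young members, against 13776.5 and 15566 UMIs over all kept barcodes of the aged and young libraries. The rule asks for several genes at once and so favours deep barcodes. Summed over members, there were 2340288 UMIs in the aged and 2610761 UMIs in the young library.

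All 6 marker genes reached 2 UMIs in 34 aged and 42 young members, 5 did so in 8 aged and 8 young members, and 4 did so in 3 aged and 2 young members. Just outside the rule, 3 markers reached 2 UMIs in 4 aged and 6 young barcodes. A further 13 aged and 31 young barcodes carried 4 or more markers but were left out, for Prox1 in 4 and 17 of them, for the myeloid genes in 8 and 15, and for the collagens in 1 and 1. Values are given as CPM, each gene's UMIs scaled to the UMIs summed over the members of a library. On that scale Cdh5, the cadherin of endothelial junctions, stood at 1264 CPM in aged members and 1109.6 CPM in young members, and Pecam1, a junctional adhesion molecule, at 1349 and 1094 CPM. Emcn, a surface sialomucin, stood at 824 and 743 CPM in aged and young members, and Kdr, the main VEGF receptor, at 277 and 205 CPM. None of the 6 markers was past 1.5-fold between the ages.

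Other cell types' genes were checked in the same barcodes. Keratinocyte markers were near 0, with Krt5, Krt14 and Krt17 at 0 UMIs in both libraries, and Ccl21a, a lymphatic chemokine, was also at 0 in both. Mural genes were not near 0. At least 5 UMIs of Rgs5, Pdgfrb, Notch3, Kcnj8, Abcc9 and Higd1b together were counted in 10 of 45 aged and 20 of 52 young members. Those barcodes held 99.8% of the Rgs5 UMIs, a pericyte gene, in the members of each library, so mural RNA was not spread evenly over the members. At least 10 UMIs of a T and NK cell list were counted in 0 of 45 aged and 8 young members, and at least 10 UMIs of a macrophage and neutrophil list in 2 aged and 9 young members. A count of 0 of 45 members allows a share of up to 7.87%, for counting error only.

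The mural list of 12 markers summed to 1275 CPM in aged and 2004 CPM in young members, with 9 of 12 lower and 1 higher in aged, and from 0 to 407 UMIs of its 6 leading genes in an aged barcode against 0 to 573 in a young one. The fibroblast list summed to 686 and 1677 CPM, with 9 of 9 measured markers lower in aged. The macrophage and neutrophil list summed to 91.4 and 527 CPM, with 5 of 8 lower and 2 higher, and the T and NK list to 2.14 and 235 CPM, with 6 of 6 lower. All 4 lists were thus lower in aged members, and their part in the age ratios below was tested only by leaving barcodes out.

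Altogether 11 aged and 26 young members carried a second cell type's UMIs by these limits, which were set after seeing the data. The other 34 aged and 26 young members are called single-type members below, and their median depth was 36082.5 and 24025.5 UMIs. In them the T and NK list summed to 0 CPM in aged and 2.23 CPM in young, and the fibroblast list to 131 and 130.2 CPM. Some mural RNA remained, with 439 and 215 CPM of the 12 markers, and Acta2, a smooth muscle actin that the limit did not use, at 140.1 and 6.68 CPM. Their share of kept barcodes was 0.808% in the aged and 0.558% in the young library, and the ratio of these shares was 1.45 (0.843 to 2.51). Because such barcodes were more frequent among young members, counts and ratios among single-type members stand beside many of the results. In the aged library, 4 pairs of members had UMI counts that differed by about as much as sampling alone gives, with a chi-square per gene between 0.954 and 1.40, and the next pair stood at 2.15. The young library had 0 such pairs, its lowest at 1.93, so the aged members may be 41 distinct cells. Among all barcodes, 3 sequences were shared by both libraries, and 0 of these were members.

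Differences between the ages were counted over 10454 genes with at least 20 UMIs in the members of both libraries together. By the wider rule a gene is called higher at an aged/young CPM ratio of at least 1.5 and lower at a ratio of at most 0.667, its inverse. In this way 11.3% of the genes were higher in aged members and 9.75% were lower. With the whole counting interval past 1.5-fold, 1.23% were higher and 3.42% were lower. Single-type members, with 8505 genes past the minimum, had 15.5% higher and 8.54% lower by ratio, and 1.66% and 1.14% by the whole interval. All other kept cells, where far more UMIs were counted, had 3.91% of the 10454 genes higher and 4.96% lower by ratio, and 2.04% and 3.41% by the whole interval. The median log2 ratio over all genes was 0.07 in members, 0.08 in single-type members and 0.09 in the other cells.

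Genes of endothelial identity that the rule did not use were present in both ages. Of 30 such genes, all measured, 4 were higher and 0 were lower in aged members, against 11.3% and 9.75% of all genes. Their median log2 ratio was 0.24. Among single-type members the counts were 1 and 1, with a median within 0.01 of 0. Plvap, the diaphragm protein of capillary and venule fenestrae, stood at 1003 CPM in aged members and 892 CPM in young members, a ratio of 1.12. Erg, an ETS factor that keeps endothelial identity, stood at 276 and 231 CPM, and Cldn5, a tight junction claudin, at 321 and 273 CPM. Nos3, the endothelial nitric oxide synthase, was higher at 121 and 72.4 CPM in aged and young members, a ratio of 1.68 (1.39 to 2.03).

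Several genes outside the rule stood further above the other kept cells than its markers did. Adgrl4, an adhesion receptor of endothelium, was 471 times the level of the other cells in the aged library and 248 times in the young library. Sox17, a transcription factor of arterial endothelium, was 1116 and 235 times that level, and Gpihbp1, which carries lipoprotein lipase across capillaries, 758 and 221 times. Prnd, a prion family gene, reached 1301 and 362 times. The remaining 11 of the 15 genes with the highest folds were Nr5a2, Chga, Esm1, Depp1, Fam110d, Tmem252, Robo4, Fam167b, Ptchd1, Esam and Tacr1, from 117 to 1784 times the level of the other cells. Robo4 is a guidance receptor of vessels, Esam a junction molecule and Tacr1 the substance P receptor. These folds describe cells picked by expression. The other kept cells also hold the left-out endothelial barcodes, 13 in the aged and 31 in the young library.

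Several venous genes were lower in aged members. Selp, the P-selectin on which leukocytes first roll, stood at 505 CPM in aged members and 1578 CPM in young members, a ratio of 0.320 (0.30 to 0.342). Ackr1, the atypical chemokine receptor of venules, stood at 25.2 CPM in aged members and 194 CPM in young members, a ratio of 0.130 (0.0974 to 0.170). Both ratios held among single-type members, at 0.312 for Selp and 0.0964 for Ackr1. All other kept cells together had ratios of 0.682 and 0.996.

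That difference in Selp lay in its level per barcode more than in how many barcodes carried it. At least 5 Selp UMIs were counted in 17 of 45 aged and 19 of 52 young members. In those barcodes the median level was 633 CPM in aged and 3716 CPM in young members. The 3 highest aged barcodes held 68.0% of the aged Selp UMIs, against 41.0% in young members. Without the 3 highest barcodes of each library the ratio was 0.170, and with each barcode weighted equally 0.457. After thinning each barcode to 5000 UMIs, which left out 0 aged and 1 young member, a Selp UMI was found in 14 of 45 aged and 19 of 51 young members, against 21 of 45 and 25 of 52 before thinning. In thinned myeloid barcodes, which should lack Selp, the share was 1.02% in aged and 0.955% in young.

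The Ackr1 UMIs lay in few barcodes. At least 5 UMIs were counted in 2 aged and 9 young members, with a median in them of 243 and 745 CPM. Of these barcodes, 1 of the 2 aged and 6 of the 9 young ones carried a second cell type's UMIs. After thinning, 3 of 34 aged (8.82%) and 3 of 25 young (12.0%) single-type members had an Ackr1 UMI, so a difference in the share of single-type members was not detectable. All 2 aged and 9 young barcodes with at least 5 Ackr1 UMIs also had at least 5 Selp UMIs. Glycam1, a sialomucin ligand of L-selectin made by high endothelial venules, had 2 UMIs in 1 aged member and 87 UMIs in 7 young members, a ratio of 0.0256 (0.00306 to 0.0955). Outside the members its ratio was 0.0421.

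Of 16 venous and postcapillary genes, 2 were higher and 6 were lower in aged members, against 11.3% and 9.75% of all genes. The median log2 ratio was -0.19. Among single-type members 2 were higher and 4 were lower, against 15.5% and 8.54% of all genes. Icam1, the leukocyte integrin ligand, stood at 314 CPM in aged members and 589 CPM in young members, a ratio of 0.533 over all members and 0.336 over single-type members. Sele, the cytokine-induced E-selectin, stood at 218 and 362 CPM, and its ratio of 0.604 was 0.937 among single-type members. The lower Sele level in aged members therefore lay in barcodes with a second cell type's UMIs. Lrg1, a secreted modifier of TGF-beta signalling, stood at 109 and 244 CPM, and Tll1, a matrix metalloprotease, at 139 and 326 CPM. Of 14 measured leukocyte adhesion genes, some of them on both lists, 2 were higher and 5 were lower. Among single-type members 1 of 13 was higher and 2 were lower, near the shares over all genes.

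Vcam1 went the other way. This ligand of the leukocyte integrin VLA-4 stood at 632 CPM in aged members and 264 CPM in young members, a ratio of 2.39 (2.18 to 2.62) over all members and 4.24 (3.60 to 5.03) over single-type members. The 3 highest aged barcodes held 66.8% of its aged UMIs, and without the 3 highest of each library the ratio was 1.31. The barcodes with 457 and 383 Vcam1 UMIs each held 0 Selp UMIs. These barcodes held 39 and 21 UMIs of Sema3g and 22 and 11 UMIs of Bmx, both arterial genes. The next barcode, with 148 Vcam1 UMIs, held 555 Selp UMIs. At least 5 Vcam1 UMIs were counted in 23 of 45 aged and 22 of 52 young members. After thinning, 17 of 34 aged and 6 of 25 young single-type members had a Vcam1 UMI. Ephb4, the venous ephrin receptor, was also higher, at 48.3 and 26.4 CPM in aged and young members. Nr2f2, the transcription factor of venous identity, stood at 97.4 and 107 CPM, a ratio of 0.908 (0.759 to 1.09) that spans 1, and Vwf, the clotting factor stored in endothelial granules, at 101 and 127 CPM.

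**Figure D1:**
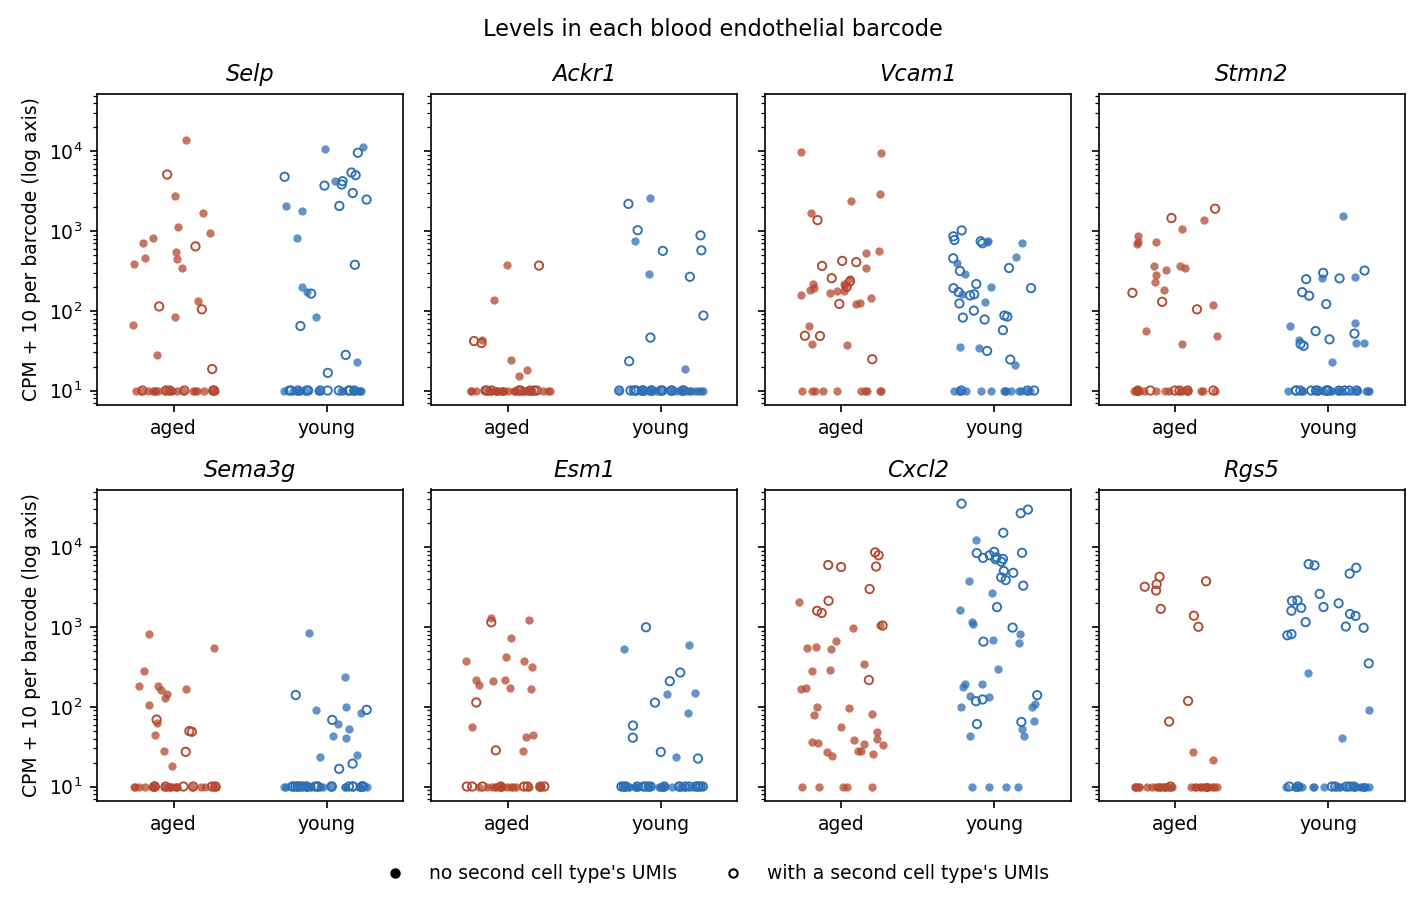
Levels of 8 genes in each blood endothelial barcode, as CPM + 10 on a log axis, with aged barcodes left of young barcodes. Each point is 1 of 45 aged or 52 young members and open points carry a second cell type's UMIs. Ackr1 reached at least 5 UMIs in 2 aged and 9 young members, Stmn2 in 15 aged and 9 young members, and Rgs5 lies almost wholly in open points.

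Arterial genes were higher in aged members. Of 14 measured arterial genes, 6 were higher and 0 were lower, with a median log2 ratio of 0.40, against 11.3% of all genes called higher and a median of 0.07. Among single-type members 6 were higher and 1 was lower, against 15.5% and 8.54% of all genes, with a median of 0.30. The lower one was Sox17, at 0.543 (0.441 to 0.669), whose ratio over all members was 0.870 (0.740 to 1.02).

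Stmn2, a tubulin-binding stathmin, had the largest ratio of the measured arterial genes. It stood at 259 CPM in aged members and 52.5 CPM in young members, a ratio of 4.93 (4.09 to 5.97). At least 5 Stmn2 UMIs were counted in 15 of 45 aged and 9 of 52 young members, with a median in them of 669 and 245 CPM. Both barcodes of 1 near-identical aged pair are among the 15, with 99 and 75 of the 605 aged Stmn2 UMIs. After thinning, a UMI was found in 15 of 45 aged members and 10 of 51 young members (9.82% to 33.1%), against 22 of 45 and 21 of 52 before thinning. The aged share of 33.3% had an interval that overlaps the young one. In thinned myeloid barcodes 0 of 294 aged and 0 of 314 young had a Stmn2 UMI.

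Sema3g, a secreted semaphorin of arterial endothelium, stood at 60.7 CPM in aged members and 16.5 CPM in young members, a ratio of 3.68 (2.60 to 5.31). With each barcode weighted equally its ratio was 1.88. Bmx, a kinase of arterial endothelium, stood at 28.2 and 6.89 CPM in aged and young members, from 66 and 18 UMIs, a ratio of 4.09 (2.4 to 7.32). Hey1, a Notch target gene of arterial fate, stood at 37.6 and 17.6 CPM. These genes are sparse, and the 3 highest barcodes held 63.4% of the aged and 55.8% of the young Sema3g UMIs. The aged barcodes with 457 and 383 Vcam1 UMIs held 39 and 21 of the 142 aged Sema3g UMIs. The same barcodes held 22 and 11 of the 66 aged Bmx UMIs, so the Vcam1, Sema3g and Bmx levels share barcodes.

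Gja4, the gap junction protein connexin 37, stood at 55.1 and 35.6 CPM and had a ratio of 1.55 (1.18 to 2.04). With each barcode weighted equally the ratio was 0.872, so its direction depends on the weighting. Dll4, the Notch ligand of arteries and tip cells, stood at 73.1 and 49.0 CPM in aged and young members, a ratio of 1.49 (1.18 to 1.89). Efnb2, the arterial ephrin, stood at 95.3 and 82.4 CPM, and Gja5, connexin 40, had 26 UMIs in aged and 18 UMIs in young members. The barcodes with arterial genes were partly the same ones. Of 15 aged members with at least 5 Stmn2 UMIs, 6 also had as many of Gja4 and 6 had as many of Sema3g, against 4 and 3 of 9 young members. Both barcodes of 1 near-identical aged pair count among the 6 with Gja4. Only 1 aged and 1 young member had at least 5 UMIs of both Selp and Gja4.

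The Notch list held 16 measured genes, of which 3 were higher and 2 were lower in aged members, with a median log2 ratio of 0.25. The shares over all genes were 11.3% and 9.75%. Among single-type members 3 of 13 were higher and 1 was lower, against 15.5% and 8.54% of all genes. The receptor Notch1 stood at 181 and 157 CPM and the receptor Notch4, which is mainly endothelial, at 59.8 and 47.9 CPM in aged and young members, neither past 1.5-fold. Among the ligands, Jag2 stood at 33.3 and 22.2 CPM and Jag1 at 63.2 and 49.4 CPM. Rbpj, the DNA-binding partner of cleaved Notch, was lower at 77.3 and 168 CPM, a ratio of 0.461, but 0.786 among single-type members. Notch3, a mural receptor, was lower at 35.0 and 64.0 CPM, and single-type members held 0 aged UMIs and 1.11 CPM in young. Hes1, another Notch target, stood at 133 and 129 CPM.

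**Figure D2:**
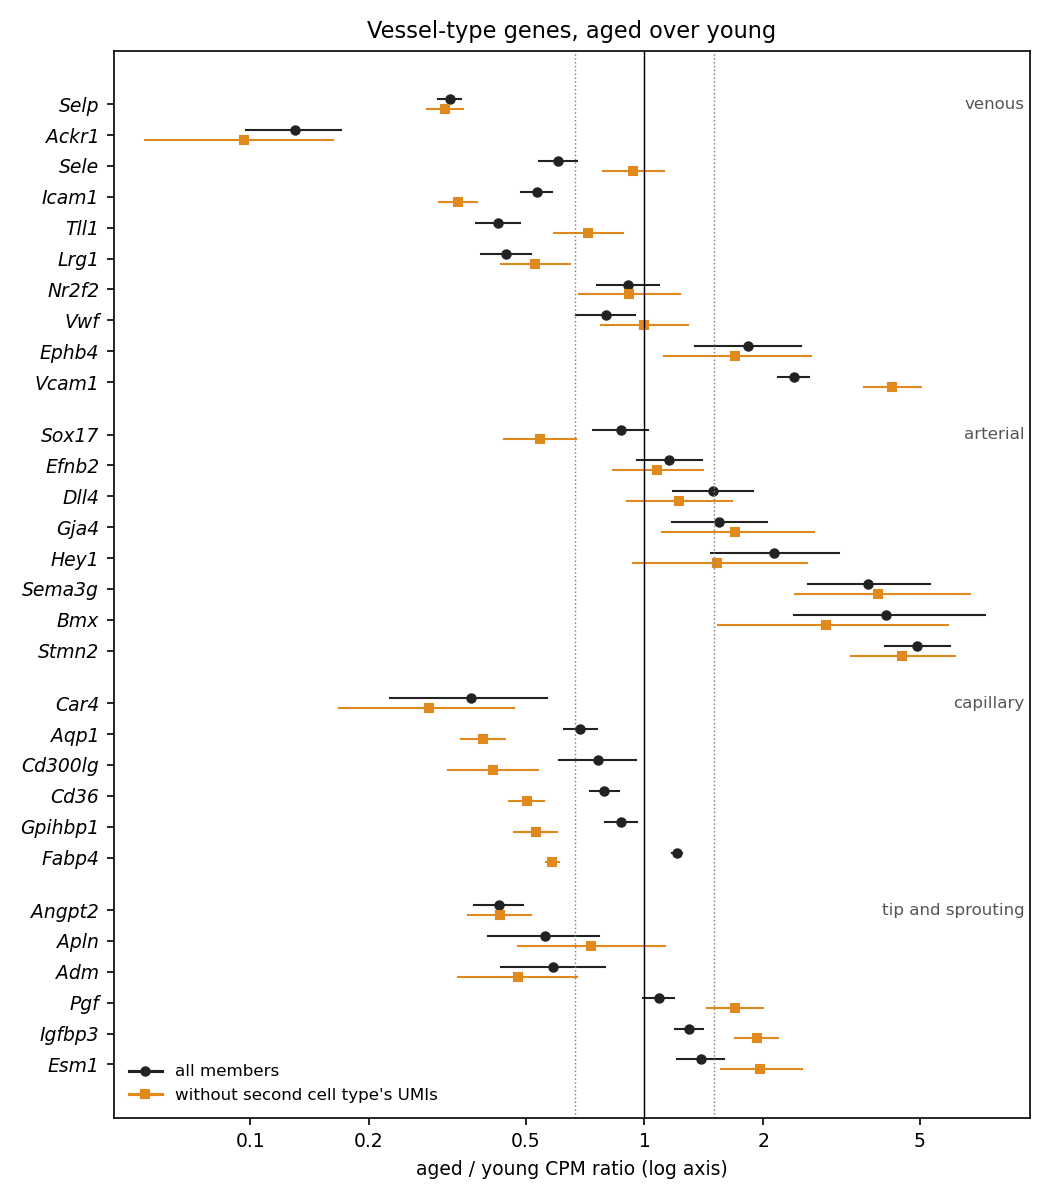
Aged/young CPM ratios of venous, arterial, capillary and tip cell genes on a log axis, with 95% intervals for counting error. Circles are all 97 members, squares are the 60 members without a second cell type's UMIs, and dotted lines mark 1.5-fold. Selp and Ackr1 lie left of the lower line and Stmn2, Sema3g and Bmx right of the upper line in both sets, while the capillary genes lie further left in the smaller set.

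Capillary genes gave different pictures in the 2 sets of members. Over all members 1 of 14 was higher and 1 was lower, against 11.3% and 9.75% of all genes, with a median log2 ratio of -0.01. Over single-type members 0 were higher and 6 were lower, against 15.5% and 8.54% of all genes, with a median of -0.46. Fabp4, a fatty acid binding protein and the most abundant gene of the list, stood at 4590.5 CPM in aged members and 3795 CPM in young members, a ratio of 1.21 (1.18 to 1.24) over all and 0.583 (0.561 to 0.606) over single-type members. Of 10743 aged Fabp4 UMIs, 3284, or 30.6%, came from 1 pair of near-identical barcodes. With 1 barcode of each such pair left out the ratio was 1.05, and without both barcodes of each pair aged members stood at 3261 CPM, a ratio of 0.859, a setting added after seeing the data. Its direction thus turned with the choice of members.

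Aqp1, the water channel, stood at 288 CPM in aged members and 419 CPM in young members, a ratio of 0.687 over all members and 0.390 over single-type members. A thinned Aqp1 UMI was found in 21 of 45 aged (31.7% to 62.1%) and 38 of 51 young members (60.4% to 85.7%), and in 31 of 45 and 46 of 52 members before thinning. Cd36, a fatty acid transporter, stood at 399.95 and 506 CPM, and Gpihbp1 at 338 and 388 CPM, with ratios among single-type members of 0.503 and 0.529. Car4, a membrane carbonic anhydrase, had 27 UMIs in 3 aged members and 83 UMIs in 18 young members, a ratio of 0.363 (0.226 to 0.566). Of these aged UMIs, 88.9% came from 1 barcode.

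Among genes of fatty acid handling, 3 of 16 were higher and 1 was lower over all members, against 11.3% and 9.75% of all genes. Over single-type members 1 of 15 was higher and 6 were lower, against 15.5% and 8.54% of all genes. Lpl, the lipoprotein lipase, stood at 37.2 CPM in aged members and 71.2 CPM in young members, a ratio of 0.522 over all and 0.246 over single-type members. Pparg, a nuclear receptor for lipids, was higher at 74.3 and 37.9 CPM, with a ratio of 1.96 (1.52 to 2.54) over all and 1.79 over single-type members.

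Genes of sprouting did not move together. Of 21 tip cell and sprouting genes, 1 was higher and 6 were lower in aged members, against 11.3% and 9.75% of all genes. The median log2 ratio was 0.04. Among single-type members 5 were higher and 4 were lower, against 15.5% and 8.54% of all genes in that set. Angpt2, which opens vessels to sprouting by blocking the Tie2 receptor, stood at 111 CPM in aged members and 260.5 CPM in young members, a ratio of 0.427 (0.368 to 0.493) over all and 0.430 over single-type members. Outside the members the ratio was 0.384. At least 5 Angpt2 UMIs were counted in 15 of 45 aged and 23 of 52 young members.

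Apln, the apelin peptide of tip cells, stood at 25.2 and 45.2 CPM and its receptor Aplnr, which answers in vein and sprout cells, at 73.9 and 42.5 CPM in aged and young members. Their ratios were 0.558 and 1.74, and among single-type members 0.733 for Apln, and for Aplnr 81.4 CPM in aged against 81.2 CPM in young members. Esm1, a proteoglycan of tip cells, stood at 198 and 142 CPM, with a ratio of 1.39 (1.21 to 1.60) over all and 1.97 (1.56 to 2.51) over single-type members. In young members 56.7% of the Esm1 UMIs came from 1 barcode. Pgf, a VEGF family ligand, and Igfbp3, an IGF binding protein, had ratios of 1.09 and 1.30 over all members, and 1.69 and 1.93 over single-type members. Ednrb, the endothelin receptor B, was lower at 175 and 273 CPM, but single-type members held 85.8 CPM in aged and 85.7 CPM in young.

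Over all members none of the VEGF receptors was past 1.5-fold between the ages. Flt1, the decoy-like receptor VEGFR1, stood at 1733 CPM in aged members and 1362 CPM in young members, a ratio of 1.27 (1.22 to 1.33) over all and 1.27 over single-type members. Kdr is a gene of the rule and stood at a ratio of 1.36, and the co-receptors Nrp1 and Nrp2 at 1.33 and 0.920. Flt4, the receptor of VEGF-C, stood at 23.9 and 23 CPM over all members, but at 26.5 CPM in aged and 41.2 CPM in young single-type members, a ratio of 0.644 (0.404 to 1.03). Among the ligands, Vegfc had 68 UMIs in 13 aged and 19 UMIs in 11 young members, a ratio of 3.99 (2.37 to 7.03) over all and 3.78 over single-type members. After thinning a Vegfc UMI was found in 2 of 45 aged and 0 of 51 young members, so a difference in the share of cells was not detectable at this depth. Vegfa stood at 26.5 and 16.1 CPM and Vegfb at 6.84 and 12.6 CPM, far below the receptors on this scale, which is not divided by gene length.

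Of the angiopoietin and Tie list, 7 genes were measured, 0 were higher and 2 were lower in aged members, against 11.3% and 9.75% of all genes. Among single-type members 0 of 5 were higher and 1 was lower, against 15.5% and 8.54% of all genes. The lower ones over all members were Angpt2 and Angptl2, a related secreted factor with 8.12 and 16.9 CPM in aged and young members. Tek, the Tie2 receptor, stood at 128 CPM in aged members and 122 CPM in young members, a ratio of 1.05 (0.893 to 1.23). Ptprb, the phosphatase that damps Tie2, stood at 439 and 329 CPM, a ratio of 1.33, and Angpt1, the activating ligand made by mural cells, had 12 UMIs in aged and 16 UMIs in young members.

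Cytokine and chemokine transcripts were lower in aged members. Of 24 measured genes 4 were higher and 12 were lower, against 9.75% of all genes called lower, with a median log2 ratio of -0.48 over all and -0.56 over single-type members, where 3 of 18 were higher and 9 were lower. Outside the members the median was 0.13. Cxcl1 and Cxcl2, which draw neutrophils, stood at 1954 and 1280.2 CPM in aged members and 4483 and 4200.3 CPM in young members. The ratios were 0.436 (0.421 to 0.451) for Cxcl1 and 0.305 (0.293 to 0.317) for Cxcl2.

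The start regions of these 2 genes are shown because both transcripts were lower together and NF-kappaB is known to drive them. The 250 bases before each annotated start come from RefSeq on GRCm38.p6, Cxcl1 at chr5:90890995-90891244, plus strand, and Cxcl2 at chr5:90903649-90903898, plus strand. Capitals mark matches to the kappaB consensus, which overlap on both strands.
Cxcl1: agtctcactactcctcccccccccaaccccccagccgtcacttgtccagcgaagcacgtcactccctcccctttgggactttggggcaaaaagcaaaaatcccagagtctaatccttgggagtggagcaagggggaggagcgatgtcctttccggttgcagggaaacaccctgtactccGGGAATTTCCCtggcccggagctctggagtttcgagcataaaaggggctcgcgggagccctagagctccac
Cxcl2: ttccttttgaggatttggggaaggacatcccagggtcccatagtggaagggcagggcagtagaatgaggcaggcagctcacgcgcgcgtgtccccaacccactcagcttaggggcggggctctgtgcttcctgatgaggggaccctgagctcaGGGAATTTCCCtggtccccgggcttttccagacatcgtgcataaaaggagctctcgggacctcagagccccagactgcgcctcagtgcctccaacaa
Both windows hold the same 11 letters GGGAATTTCCC. Of 10 adhesion and cytokine genes chosen for this search, 7 were counted, as Vcam1, Csf3 and Ccl2 had no start region in the source. Within 250 bases before to 50 bases after the start, 3 of the 7 held the consensus, against 4.505% of 32851 promoters. They were Cxcl1, Cxcl2 and Il6. Selp, Sele, Icam1 and Ackr1 had no match in the letters of that window. A match is a description of the letters only.

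Most UMIs of Cxcl1, Cxcl2, Il6 and Ccl2 lay in barcodes that also held mural UMIs, unlike those of Csf3. The barcodes with at least 5 mural UMIs held 72.4% of the aged and 77.0% of the young Cxcl1 UMIs, and 89.9% and 83.3% of those of Ccl2, a monocyte chemokine. Within them Cxcl1 stood at 5171 CPM in 10 aged and 6419 CPM in 20 young members, Ccl2 at 3909 and 3811 CPM, Il6 at 2426 and 2727 CPM and Csf3 at 467 and 759 CPM in aged and young. Cxcl1, Ccl2 and Il6 were thus within 1.5-fold between the ages inside these barcodes, which were fewer among aged members.

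In barcodes with fewer mural UMIs the ratios of Cxcl1, Cxcl2, Il6 and Csf3 were lower than in those with more. Cxcl1 stood there at 743 CPM in 35 aged and 2229 CPM in 32 young members, and Cxcl2 at 238 and 2142 CPM. Of the 2585 young Cxcl2 UMIs there, 1696 came from 1 barcode with 767 UMIs of the macrophage and neutrophil list. Il6, a cytokine of acute inflammation, stood at 404 and 832 CPM, and Csf3, the granulocyte growth factor, at 334 and 1549.8 CPM. Over all members Il6 stood at 957 and 1851 CPM and Csf3 at 370.04 and 1125 CPM, ratios of 0.517 and 0.329. Over single-type members the ratios were 0.325 for Cxcl1, 0.206 for Cxcl2, 0.494 for Il6 and 0.237 for Csf3.

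**Figure D3:**
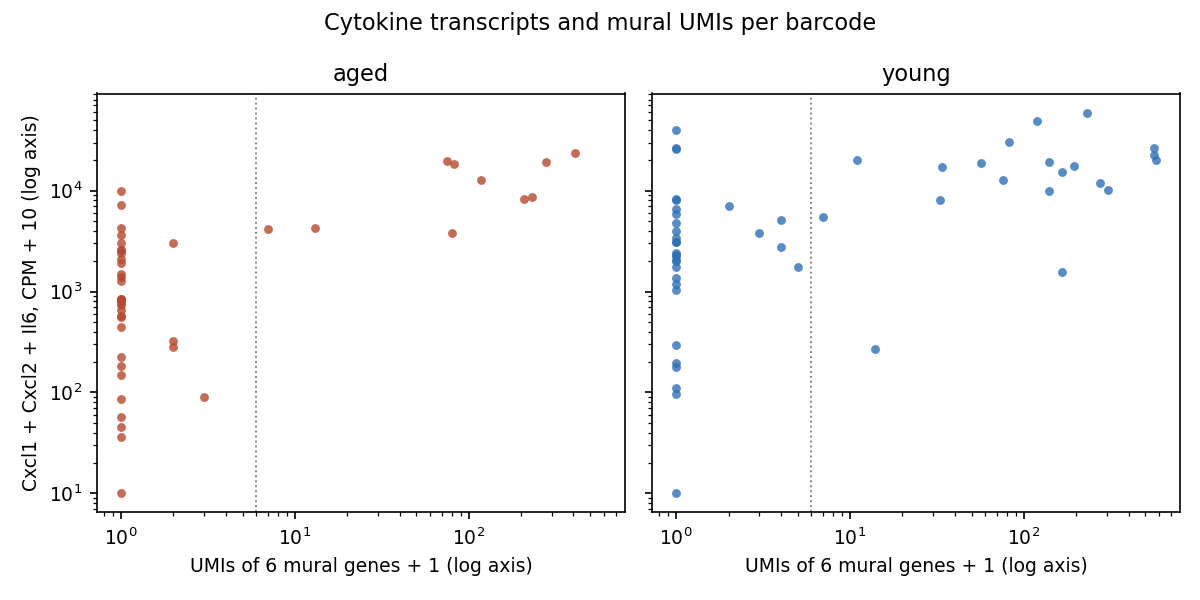
Summed Cxcl1, Cxcl2 and Il6 CPM + 10 of each member against its UMIs of 6 mural genes + 1, both on log axes, aged left and young right. Each point is 1 barcode and the dotted line marks 5 mural UMIs, reached by 10 aged and 20 young members. The barcodes right of the line lie mostly at high cytokine levels in both ages.

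Ccl2 stood at 1189 CPM in aged members and 2461 CPM in young members, a ratio of 0.483 (0.462 to 0.505) over all and 0.223 (0.194 to 0.257) over single-type members. In the other kept cells it was higher in aged, at a ratio of 1.54. Il1b, an early inflammatory cytokine, stood at 152 and 354 CPM, but 96.6% of the aged UMIs came from 1 barcode and 97.2% of the young UMIs from 3, all with myeloid UMIs. Tnf had 8 UMIs in 3 aged and 163 UMIs in 7 young members. Il17a, a T cell cytokine, had 0 UMIs in aged members and 250 UMIs in 8 young members, at least 74.7-fold lower in aged when a count of 0 is set at 3 counts over the library. Those 8 are the young members with at least 10 UMIs of the T and NK list, which itself includes Il17a. The bound therefore describes barcodes with T and NK UMIs, not single-type members.

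Some chemokines were higher in aged members. Cx3cl1, the membrane-bound fractalkine that binds monocytes, stood at 62.0 CPM in aged members and 14.6 CPM in young members, a ratio of 4.26 (2.96 to 6.26) over all and 4.66 (2.67 to 8.79) over single-type members. At thinned depth a Cx3cl1 UMI was found in 11 of 45 aged (12.9% to 39.5%) and 6 of 51 young members (4.44% to 23.9%), and in 21 of 45 and 17 of 52 before thinning. Cxcl5, a neutrophil chemokine, stood at 247 and 88.5 CPM, but single-type members held 6.94 and 1.11 CPM of it. Cxcl12, the stromal ligand of Cxcr4, stood at 248 and 203 CPM, and Kitl, stem cell factor, at 916 and 919 CPM in aged and young members.

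The interferon-response list had a lower median aged/young ratio in the members than in the rest of the wound. Of 37 genes, 2 were higher and 5 were lower in aged members, against 11.3% and 9.75% of all genes, with a median log2 ratio of -0.14. Over single-type members 0 were higher and 17 were lower, with a median of -0.52, against 8.54% of all genes called lower in that set. In the other kept cells 24 were higher and 0 were lower in aged mice, against 3.91% and 4.96% of all genes there, with a median of 0.68. The difference between the 2 ratios was not tested.

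Ifit1, an RNA-binding antiviral protein, stood at 47.4 CPM in aged members and 97.3 CPM in young members, a ratio of 0.488 (0.386 to 0.612), against 3.80 in the other cells. Isg15, a ubiquitin-like modifier, stood at 218 and 398 CPM, a ratio of 0.547 (0.491 to 0.609), against 1.62 in the other cells. Both ratios rest partly on few barcodes. The 3 highest held 53.2% of the aged and 63.4% of the young Ifit1 UMIs, and 36.9% and 50.2% of those of Isg15. Without the deepest 10% of members the ratios were 0.669 and 0.762. After thinning, an Ifit1 UMI was found in 10 of 45 aged and 8 of 51 young members, and an Isg15 UMI in 18 and 32. Igtp, an interferon-induced GTPase, stood at 28.6 and 54.4 CPM, and Irf1, a transcription factor of the response, at 113 and 124 CPM in aged and young members. Irf1 had a ratio of 0.912 over all and 0.400 over single-type members. The 2 higher genes were Cxcl9, a T cell chemokine at 118 and 58.6 CPM, and Gbp4, a guanylate-binding protein at 73.5 and 44.0 CPM.

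The 250 bases before the starts of Ifit1 and Isg15 are shown because their ratios in members and in the other cells lay on opposite sides of 1. They come from RefSeq on GRCm38.p6, Ifit1 at chr19:34640639-34640888, plus strand, and Isg15 at chr4:156200819-156201068, minus strand. Capitals mark matches to the core of the interferon-stimulated response element, which is GAAA, any 2 bases and GAAA, on either strand, and neighbouring matches may overlap.
Ifit1: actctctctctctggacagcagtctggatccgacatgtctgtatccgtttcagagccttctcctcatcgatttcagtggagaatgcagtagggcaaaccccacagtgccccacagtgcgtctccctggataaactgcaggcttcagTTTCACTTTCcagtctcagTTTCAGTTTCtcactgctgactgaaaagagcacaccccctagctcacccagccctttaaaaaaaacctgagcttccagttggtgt
Isg15: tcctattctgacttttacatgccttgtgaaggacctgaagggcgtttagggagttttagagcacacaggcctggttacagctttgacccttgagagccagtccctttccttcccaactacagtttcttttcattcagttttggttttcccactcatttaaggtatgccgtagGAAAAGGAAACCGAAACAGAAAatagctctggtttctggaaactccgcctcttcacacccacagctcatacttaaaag
Ifit1 holds 2 matches and Isg15 holds 3. Of 9 interferon genes chosen for this search, 7 were counted. Gbp4 had no start region in the source, and Iigp1 was left out of the count. Within 250 bases before to 50 bases after the start, 5 of the 7 held the motif, against 3.443% of 32851 promoters. They were Ifit1, Ifit3, Isg15, Rsad2 and Cxcl10, while Ifit2 and Cd274 had no match there. The genes were chosen as interferon-response genes, so this share describes the letters only and is no result about the age ratios.

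A few barcodes carried much of the interferon list. Its summed level ran from a lowest of 742 CPM through a median of 3135 CPM to a highest of 36636 CPM among aged members, and through 482, 3442 and 42302 CPM among young members. It passed 10000 CPM in 4 of 45 aged and 9 of 52 young members, and the 5 highest barcodes held 40.2% of the aged and 40.4% of the young UMIs of the list. The list's median changed with these barcodes. It was 0.045 without the 3 highest barcodes per gene in each library, and 0.075 without the deepest 10% of members, so the direction of the list's median rests on few cells.

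**Figure D4:**
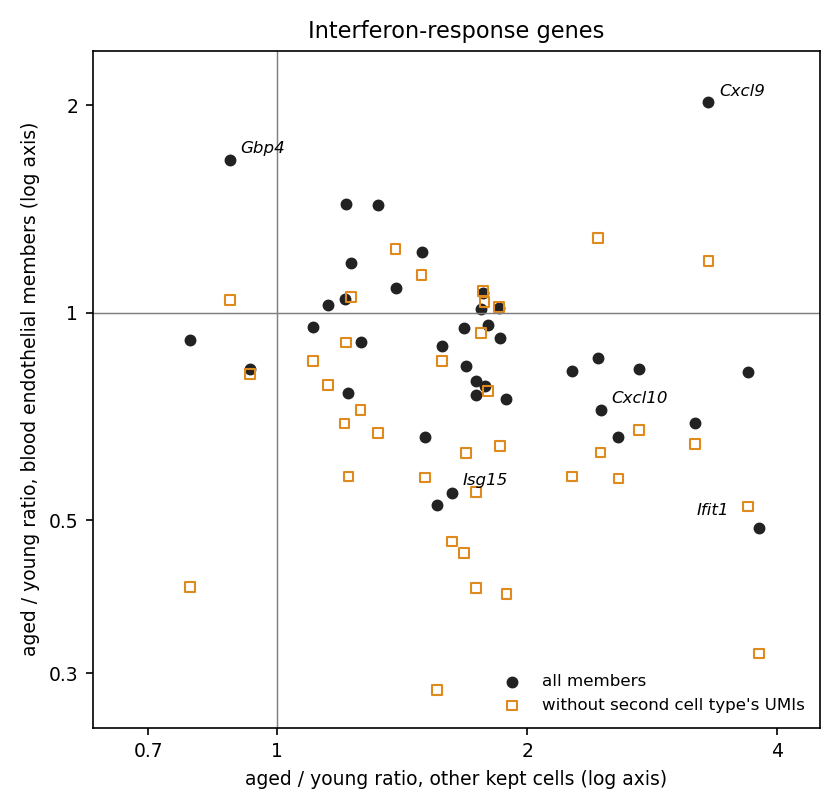
Aged/young ratios of 37 interferon-response genes in blood endothelial members on the vertical axis against all other kept cells on the horizontal axis, both log axes. Circles are all members and open squares are members without a second cell type's UMIs. Most genes lie right of 1 and below 1, and Ifit1 lies at 0.488 in members and 3.80 in the other cells.

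MHC class I genes, which show peptides to CD8 T cells, were not past 1.5-fold over all members, with 0 of 17 higher and 0 lower and a median log2 ratio of -0.11. Of 6 measured MHC class II genes 5 were higher in aged members, but these came from few barcodes. H2-Aa stood at 60.7 and 4.60 CPM, and 83.1% of the aged UMIs came from 1 barcode with 106 UMIs of the macrophage and neutrophil list. Among single-type members its ratio was 0.567, and that of Cd74, the invariant chain, was 0.851, against 6.08 over all members.

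The members were clustered together to see how they varied among themselves, which gave 4 clusters. Cluster 0 held 27 aged and 21 young members and was led by Hdac9, Serpinb1a, Sorbs2 and Sema6a. Cluster 1 held 3 aged and 3 young members and was led by histone genes, Top2a and Cenpf, genes of dividing cells. Cluster 2 held 7 aged and 13 young members and was led by Ifit2, Cxcl10 and Ifit1, with a summed capillary list of 15505 CPM against 8151 CPM elsewhere. Cluster 3 held 8 aged and 15 young members, all 23 with at least 5 mural UMIs, and its leading genes included Rgs5, Meg3 and Serpine2. Leading genes were used by the clustering and are no finding. Its cytokine list summed to 25559 CPM against 7000 CPM elsewhere.

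The age ratios of Selp and Stmn2 can be read within clusters. In cluster 0, Selp stood at 586 CPM in aged and 1986 CPM in young members, and Stmn2 at 286 and 79.0 CPM. Of the 828 aged Selp UMIs of cluster 0, 555 came from 1 barcode with 106 UMIs of the macrophage and neutrophil list. In cluster 2, Selp stood at 1662 and 1959 CPM in aged and young, a much smaller difference. Only 4 of 7 aged and 4 of 13 young members of cluster 2 had a Selp UMI, so these levels rest on few barcodes. In cluster 3 it stood at 137 and 1711 CPM. Vcam1 was higher in aged members of cluster 0, at 831 against 129 CPM, and of cluster 2, at 1047 against 231 CPM, but not of cluster 3, at 174 against 377 CPM. These aged levels also rest on few barcodes. Of the 1174 aged Vcam1 UMIs of cluster 0, 457 and 383 came from 1 barcode each, and only 3 of 7 aged members of cluster 2 had any. In the dividing cluster 1 Selp was near 0, at 42.7 CPM in aged and 0 CPM in young members.

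**Figure D5:**
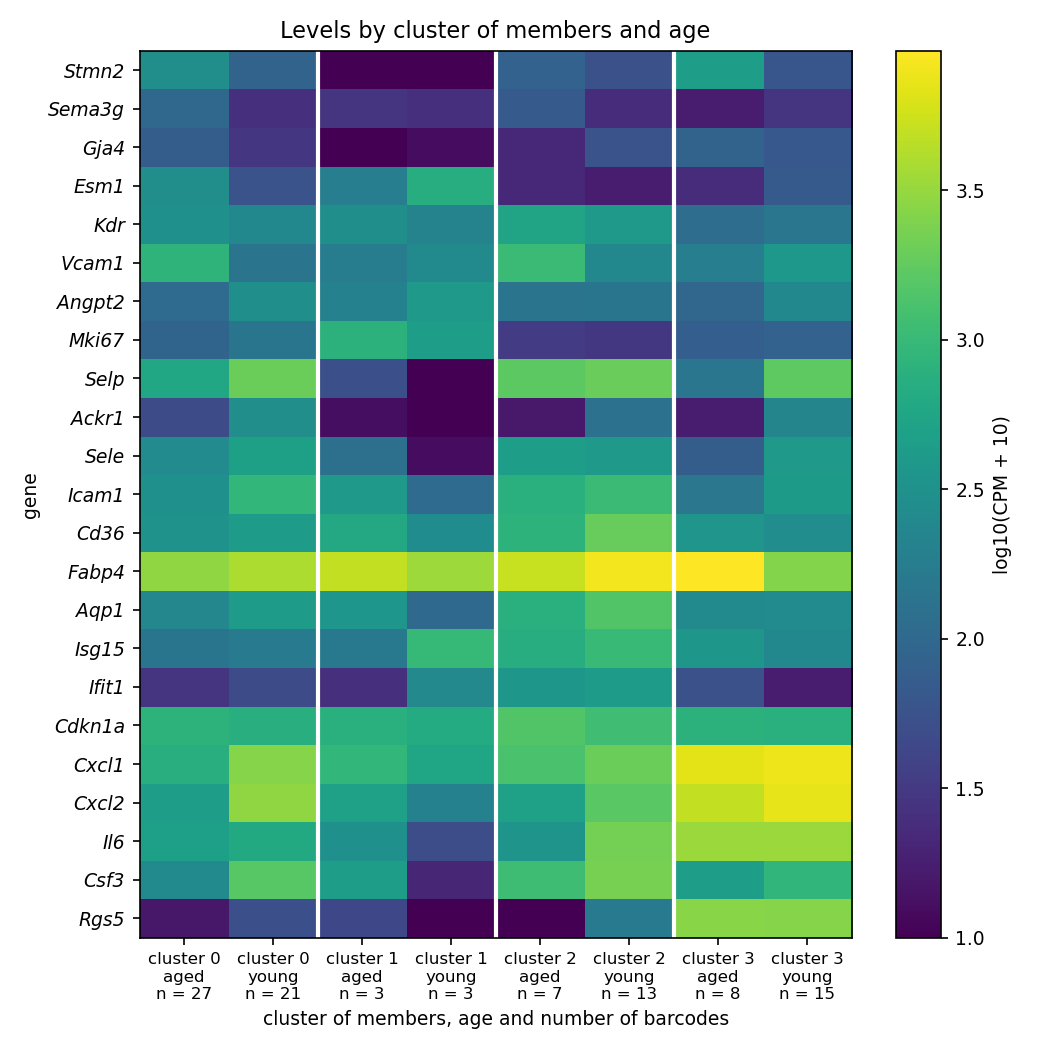
Levels of 23 genes as log10(CPM + 10) in each of the 4 clusters of members, with the aged column left of the young column and the number of barcodes under each. Rgs5, Cxcl1 and Cxcl2 are bright in both columns of cluster 3, Ifit1 in both columns of cluster 2 and Mki67 in both of cluster 1. Selp is brighter in young than in aged columns of clusters 0 and 3.

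Vessel genes varied widely from barcode to barcode. The summed venous list had a median of 1852 CPM per barcode in aged members, with a lowest of 499 and a highest of 21181 CPM, and a median of 2329 CPM in young members, with a lowest of 0 and a highest of 21658 CPM. The summed arterial list had a median of 1645 CPM in aged and 1439 CPM in young members. Across barcodes of 1 library, which share depth and ambient RNA, the arterial and venous sums had a Spearman rho of -0.36 over 45 aged members and -0.37 over 52 young members, given as a description. Selp and Sele often met in 1 barcode, with at least 5 UMIs of both in 12 of 17 aged and 14 of 19 young members that had as many of Selp.

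Senescence genes are the subject of the series. Of 32 measured senescence and p53 genes 3 were higher and 1 was lower in aged members, against 11.3% and 9.75% of all genes, with a median log2 ratio of -0.05. Among single-type members 6 were higher and 1 was lower, against 15.5% and 8.54% of all genes, with a median of -0.07. The counts of higher genes were thus near the shares over all genes. Cdkn1a, the cell cycle inhibitor p21, stood at 855 CPM in aged members and 776 CPM in young members, a ratio of 1.10 (1.04 to 1.17). At least 5 UMIs were counted in 41 of 45 aged and 47 of 52 young members, and the median per barcode was 732 CPM in aged and 772 CPM in young members. Cdkn2a, which encodes p16, had 6 UMIs in 4 of 45 aged and 5 UMIs in 3 of 52 young members. At thinned depth 0 of 45 aged and 0 of 51 young members had a UMI. This allows a share of cells with a UMI at that depth of up to 7.87% in aged and 6.98% in young.

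The 3 higher genes were Sesn2, a stress-induced p53 target at 33.3 and 16.9 CPM, Igfbp4, an IGF binding protein at 149 and 91.9 CPM, and the survival gene Bcl2 with 37 UMIs in aged and 25 UMIs in young members. The lower gene was Bcl2l1, another survival gene, at 12.8 and 27.6 CPM.

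The dividing cluster held 3 aged and 3 young members. Of 36 measured cell cycle genes 7 were higher and 0 were lower in aged members, against 11.3% and 9.75% of all genes. Over single-type members 3 of 34 were higher and 3 were lower, against 15.5% and 8.54% of all genes. The median log2 ratio was 0.17 over all and -0.07 over single-type members. Mki67, a marker of cycling cells, reached 5 UMIs in 12 of 45 aged and 13 of 52 young members. Tpx2, a spindle gene, stood at 59.4 and 33.7 CPM, and its 3 highest barcodes held 69.8% of the aged UMIs.

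Some stress genes were lower in aged members. Hmox1, the haem-degrading enzyme, stood at 85.5 CPM in aged members and 431 CPM in young members, a ratio of 0.198 (0.170 to 0.231), and at 0.144 among single-type members. Elsewhere in the wound its ratio was 1.26. At least 5 Hmox1 UMIs were counted in 13 of 45 aged and 26 of 52 young members. Among genes of tissue handling, 1 of 28 was higher and 6 were lower over all members, with a median log2 ratio of -0.24. Over single-type members 12 of 27 were lower. In the other kept cells 8 of 28 were lower, with a median there of -0.34. Of all genes, 9.75% were lower in members, 8.54% in single-type members and 4.96% in the other kept cells. The heat shock genes Hspa1a and Hspa1b had ratios of 0.372 and 0.352 in members, and 0.483 and 0.422 in the other cells. Their part in the other results was not tested.

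Further limits were set in the library where a gene was higher, namely that its 3 highest barcodes held under 0.5 of its UMIs and that its level was at least 0.5 of that in the other cells. Of the genes with at least 50 UMIs and a whole interval past 1.5-fold that passed both, 42 were higher and 53 were lower in aged members. Among these genes the highest ratios after Stmn2 were those of Cnot11, a deadenylase subunit at 19.2 and 6.51 CPM, and Auts2, a neuronal chromatin gene at 156 and 53.6 CPM, from 45 and 17 UMIs and from 364 and 140 UMIs in aged and young. Cmss1 was the most abundant of them, at 3283 CPM in aged members and 1200.03 CPM in young members, a ratio of 2.74 (2.62 to 2.85), with UMIs in all 45 aged and all 52 young members. Outside the members its ratio was 1.26. Another gene, Filip1l, is annotated inside the span of Cmss1, so some of these UMIs may belong to it. Tspan2, a tetraspanin, stood at 56.8 and 23 CPM, and P2ry6, a nucleotide receptor, at 34.2 and 14.2 CPM.

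The remaining 9 of the 15 highest ratios were those of Adgrv1, Rfwd3, Tmtc1, Ints4, Taco1, Zfp704, Ccnh, Col8a1 and Arhgef40, between 2.54 and 2.81. They rest on 40 to 153 UMIs in aged and 16 to 67 UMIs in young members. By ratio alone, all 15 were also past 1.5-fold among single-type members, which are part of the same barcodes. Counts there were small for several. Tmtc1 had 19 aged and 7 young UMIs, a ratio of 1.54 (0.620 to 4.33) that spans 1, and Adgrv1 had 37 and 2. Taco1 had a ratio of 2.77 in members and also 2.77 in the other kept cells.

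Among the genes that passed these limits, the 15 lowest ratios included those of Hmox1, Selp and Csf3. Ptgir, the prostacyclin receptor, had 8.12 and 23.4 CPM and 0 UMIs in aged single-type members. Hrh1, the histamine H1 receptor that opens venules, stood at 6.41 and 18 CPM, a ratio of 0.356 (0.185 to 0.648), against 1.78 in the other kept cells. Bst1, a cyclic ADP-ribose enzyme, stood at 11.5 and 32.2 CPM, a ratio of 0.359 (0.223 to 0.559). The remaining 9 of the 15 lowest ratios were those of Plxdc2, Hcst, Susd2, Klhl29, Garin1a, Apcdd1, Ly75, Itga7 and Ankrd44. Single-type members held at most 14 UMIs of each in aged and 11 UMIs in young, so most of their young UMIs lay in barcodes with a second cell type's UMIs. Klhl29 and Itga7 had 0 UMIs in single-type members of both ages.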

How the data were processed

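The UMI counts per gene and barcode were made by the authors with Cell Ranger and deposited as filtered 10x matrices. Cell Ranger 8.0.1 is named per the file headers and 9.0 per the submitters' processing notes, which also name STAR, Seurat 4 and the GRCm38 (mm10) build. Per the labels' protocols, skin was digested with collagenase and dispase, red cells were lysed and the cells strained before 10x 3' libraries were made.

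Barcodes with at least 500 UMIs, at least 200 genes and under 15% mitochondrial UMIs were kept. Depth was 107865898 UMIs in the aged and 111810068 UMIs in the young library. The members, gene lists and limits were chosen with earlier results of these data known. No doublet caller was run. Barcodes with at least 5 mural UMIs, or 10 UMIs of the T and NK or of the macrophage and neutrophil list, were counted and left out as an alternative.

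UMIs were summed over members per library and divided by their total. Intervals are exact Poisson for levels, Clopper-Pearson for shares and conditional binomial for ratios, all at 95%. Genes needed 20 UMIs over both libraries, and 5 CPM was added for the medians of log2 ratios. Barcodes were thinned to 5000 UMIs for shares. Clusters used scanpy 1.11.5 with 1000 variable genes, 15 components, 10 neighbours and a resolution of 0.5. Promoter letters came from RefSeq on GRCm38.p6. The ratio computation was checked on simulated counts. Python 3.11.15, numpy 2.4.6, scipy 1.17.1 and edgeR 4.0.16 for TMM factors were used.

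Named genes are those of the rule, the 15 highest and 15 lowest ratios at 50 or more UMIs with a whole interval past 1.5-fold and, in the library where the gene is higher, under 0.5 of the UMIs in 3 barcodes and a level of at least 0.5 of that in the other cells, except for genes of the mitochondrion, ribosome, haemoglobin, antibodies or sex chromosomes and those without a name. To these come the 15 genes furthest above the other cells at 50 or more UMIs in each library, the extremes and most abundant genes of each list, and the leading genes of each cluster. The choice from these in the text was made with values known.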

Additional observations from a re-analysis of the deposited data

Results flagged for a closer look

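For 6 genes of the lists the whole interval of the aged/young ratio was past 1.5-fold one way in members and past it the other way in all other kept cells. With 1 library per age, none of these differences was tested. Stmn2 had a ratio of 4.93 in members and 0.486 elsewhere, Bmx 4.09 and 0.459, and Sema3g 3.68 and 0.320. All 3 are scarce outside the members, at 1.40 CPM in aged and 2.87 CPM in young other cells for Stmn2, and those cells include the endothelial barcodes left out by the rule.

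Ccl2 had a ratio of 0.483 in members and 1.54 in the other cells. Ifit1 had 0.488 and 3.80, and Isg15 0.547 and 1.62. These 3 genes were abundant in the other cells. For Ccl2 the level there was 3956 CPM in aged and 2565 CPM in young mice, and for Ifit1 223 and 58.6 CPM. Among members, the 3 highest young barcodes held 63.4% of the young Ifit1 and 50.2% of the young Isg15 UMIs. The 3 highest aged barcodes held 63.7% of the aged Ccl2 UMIs.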

How the results depend on the processing

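No paired analysis was possible because each age has 1 library and replicate numbers only name them. Over 17 other settings, 1135 values were recomputed. Of these, 931 were within the counting interval or limits of the value reported, 195 moved past these and 9 were called reversed. These 9 belong to Gja4, Plxdc2, Cd74, Ednrb and H2-Aa, whose ratios over all members were past 1.5-fold. Smaller differences that crossed to the other side are not among the 9. Examples are Fabp4, from 1.21 to 0.583 without any second type's barcodes, and the interferon median below. The ratio of Gja4 was 0.872 with barcodes weighted equally. Without mural barcodes the ratio was 1.66 for Plxdc2, 0.867 for Cd74 and 1.22 for Ednrb. Without any second type's barcodes it was 2.27 for Plxdc2, 0.851 for Cd74, 0.567 for H2-Aa and 1.0 for Ednrb, and without the 3 highest barcodes per gene it was 0.514 for Cd74. The interferon median of -0.14 was -0.38 without mural barcodes, -0.52 without any second type, 0.075 without the deepest 10% and 0.045 without the 3 highest barcodes per gene. With a minimum of 50 UMIs, 685 genes were higher and 562 were lower in aged, and with none 3554 and 4401. Thinned to 2000 UMIs, Cdkn1a was found in 60.0% of aged and 69.2% of young members and Stmn2 in 5.77% of young members. The causes were not tested, beyond the fewer genes or UMIs that such settings leave. Few barcodes limit every value: 45 aged and 52 young.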

Other observations

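Of 16 measured genes of endothelial junctions, 4 were higher and 1 was lower in aged members, against 11.3% and 9.75% of all genes. The median log2 ratio was 0.33. Among single-type members 2 of 14 were higher and 0 were lower, near the 15.5% of all genes called higher in that set, with a median of 0.11 against 0.08 over all genes. Ctnnb1, the beta-catenin that links cadherins to the cytoskeleton, stood at 251 and 157 CPM in aged and young members, and Tjp1, a tight junction scaffold, at 341 and 269 CPM. Of 29 endothelial transcription factors 6 were higher and 1 was lower over all members, with a median of 0.24. Over single-type members 2 of 28 were higher and 3 were lower, against 15.5% and 8.54% of all genes, with a median of 0.13. Foxc1, a forkhead factor of vessels, stood at 26.9 and 14.2 CPM, a ratio of 1.90 over all and 1.61 over single-type members. Gata2, a factor of endothelial and blood cells, had 46.1 and 24.9 CPM, but its ratio of 1.85 was 1.11 over single-type members. The flow-induced factors Klf2 and Klf4 had ratios of 1.17 and 0.948.

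Of 22 BMP and TGF-beta genes, 4 were higher and 2 were lower, and 5 and 2 of 20 over single-type members. The shares over all genes were 11.3% and 9.75%, and 15.5% and 8.54% over single-type members. Acvrl1, the receptor ALK1 for BMP9, stood at 88.9 and 56.3 CPM in aged and young members, and Ltbp4, which holds latent TGF-beta in the matrix, at 183 and 99.2 CPM. Both ratios, 1.58 and 1.84, were past 1.5-fold over single-type members too. The BMP target Id1 had a ratio of 1.25. Among vasoactive genes, 2 of 19 were higher and 6 were lower over all members, and 4 of 17 were higher and 3 were lower over single-type members, with a median of 0.12. Ddah1, which breaks down an inhibitor of nitric oxide synthases, stood at 62.0 and 27.2 CPM, a ratio of 2.28 (1.70 to 3.07). Nos2, the inducible synthase, was lower, with 38 UMIs in aged and 84 UMIs in young members.

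Of 16 coagulation genes 0 were higher and 5 were lower, and 1 and 2 of 14 over single-type members. For this and the other lists here, the shares over all genes were 11.3% and 9.75%, and 15.5% and 8.54% over single-type members. The single-type coagulation counts were near those shares. F3, the tissue factor that starts clotting, stood at 76.9 and 166 CPM, a ratio of 0.464 over all but 1.34 over single-type members. F8, clotting factor VIII, had 15 and 40 UMIs in aged and young. Thbd, the anticoagulant thrombomodulin, stood at 94.9 and 82.4 CPM. None of 21 basement membrane genes was past 1.5-fold over all members, while 3 were higher over single-type members, and Col4a1, the collagen IV chain, stood at 3551 and 3713 CPM. All 34 respiratory chain genes and all 13 mitochondrial transcripts were within 1.5-fold, with median log2 ratios of 0.07 and -0.02. Among NF-kappaB and cytokine response genes 1 of 24 was higher and 8 were lower, and 1 and 6 of 22 over single-type members. Il1r1, the interleukin-1 receptor, stood at 235 and 483 CPM in aged and young members, a ratio of 0.486 over all and 0.633 over single-type members.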
